A study of Mus musculus with 4 samples.

Results

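The ADAM genes encode membrane proteins with a metalloprotease domain and a disintegrin domain, and many of them are made mainly in the testis. All rows of the deposited expression table whose symbol is Adam followed by a number and at most 1 letter were taken, which leaves out the secreted ADAMTS proteases. This gave 33 genes of 24426 in the table. Of these, 31 reached 0.5 FPKM in at least 1 library, and Adam7 and Adam28 did not. FPKM is the number of sequenced fragments scaled to transcript length and to the mapped fragments of the library.

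The libraries came from testes of male C57BL/6 mice, with 1 library per stage and 4 in all. Spermatogonia (SG, titled type A) were pooled from 30 mice aged 7 days. The spermatocytes at preleptotene (PlpSC), at leptotene/zygotene (L/ZSC) and at pachytene (PaSC) came from 5 mice aged 17 days. Cells were separated by size under gravity (STA-PUT) after Sertoli cells had adhered to the dish, and RNA was sequenced after removal of ribosomal RNA. The labels name no genetic change and no drug for any of them.

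With 1 library per stage there was no replicate spread and no test, so values, plain ratios and counts are given. Read counts and hence depth are unknown. Between consecutive stages a gene counts as higher or lower if its FPKM differed by more than 1.5 times. Fewer cells of a type and less RNA per cell cannot be told apart in such samples.

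The labels were checked against other values. For lncRNAs, the column labelled SG was the PaSC column of the study's lncRNA list multiplied by a constant. Its ratio lay within 1% of the median ratio for all 653 lncRNAs at 0.5 FPKM or more in both. The labelled PlpSC column matched its own stage in that list, and the labelled L/ZSC and PaSC columns did not. Marker genes gave the same caution in part. The 5 pachytene markers Ldhc, Pgk2, Piwil1, Ccna1 and Hspa2 summed to 4769, 612, 7351 and 7594 FPKM in labelled SG, PlpSC, L/ZSC and PaSC. As deposited, all 5 spermatogonial markers were highest in labelled PlpSC, with sums of 41.0, 97.9, 16.2 and 9.13 FPKM. So were 4 of the 5 meiotic entry and prophase markers Stra8, Rec8, Dmc1, Sycp1 and Sycp3, with sums of 333, 1076, 283 and 210 FPKM. Rec8 was highest in labelled PaSC. In labelled PlpSC these sums were 2.39 and 3.24 times those in labelled SG. Neither was recomputed with equal library sums, which change all genes of a library by the same factor. At this step that scaling took Adam22 from a ratio of 2.29 to 0.905 and Adam19 from 2.94 to 1.16. The meiotic sum, at 3.24, would thus stay higher in labelled PlpSC than in labelled SG. The rank of the spermatogonial sum, at 2.39, may depend on the scaling. The deposited FPKM summed to 858436 to 2571630 per library, and the 10 highest genes took 23.8% to 68.1% of the sum, with both maxima in labelled PlpSC. Libraries are therefore called by their labels throughout, and a value in labelled SG need not be that of spermatogonia. The study assessed the purity of each isolate by cell shape and marker expression. It reported that most cells of each isolate were of the intended stage.

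ADAM proteins are made with a signal sequence and a prodomain, pass through the endoplasmic reticulum and reach the cell surface. There the members with an intact zinc-binding site can cut other membrane proteins, a process called shedding. Members without this site act in adhesion or as partners of other ADAMs. On mouse sperm, ADAM1b and ADAM2 form a complex named fertilin, and ADAM3, or cyritestin, is needed for sperm to pass the uterotubal junction and to bind the egg coat. ADAM1a joins ADAM2 in the endoplasmic reticulum of testicular germ cells and is needed for ADAM3 to appear on sperm.

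The zinc-binding site separates the members into proteases and non-proteases, so its coding sequence is shown for 12 of them. The motif holds histidine, glutamate, histidine, glycine and histidine at fixed spacing over 11 codons, or 33 bases. All 33 members have a coding sequence in GENCODE M21, whose assembly, GRCm38, is the one called mm10. Capitals mark each codon that encodes the required residue, of 5 in all. Where the motif was absent, the stretch aligned to it in the most similar member that holds it is shown. The first sequences are from members whose motif is complete.
Adam9, chr8:24990326-24990358, minus strand: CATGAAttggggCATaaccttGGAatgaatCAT
Adam17, chr12:21336732-21336764, minus strand: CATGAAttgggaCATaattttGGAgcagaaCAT
Adam1a, chr5:121520089-121520121, minus strand: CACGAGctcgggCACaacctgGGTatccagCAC
Adam1b, chr5:121501937-121501969, minus strand: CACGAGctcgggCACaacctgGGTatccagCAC
Adam24, chr8:40680518-40680550, plus strand: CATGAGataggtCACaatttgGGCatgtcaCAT
Adam26a, chr8:43569435-43569467, minus strand: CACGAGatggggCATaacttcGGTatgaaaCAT

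In the following members the motif was incomplete. Adam29 kept 4 of the 5 codons, Adam4 kept 3, Adam6a kept 2, and Adam2, Adam3 and Adam32 kept 1, the glycine codon.
Adam29, chr8:55872374-55872406, minus strand: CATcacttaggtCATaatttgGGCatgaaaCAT
Adam4, chr12:81420763-81420795, minus strand: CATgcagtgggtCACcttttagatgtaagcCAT
Adam6a, chr12:113545050-113545082, plus strand: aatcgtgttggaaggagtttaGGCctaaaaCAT
Adam2, chr14:66053841-66053873, minus strand: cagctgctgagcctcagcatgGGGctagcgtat
Adam3, chr8:24707418-24707450, minus strand: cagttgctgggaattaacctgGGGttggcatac
Adam32, chr8:24901501-24901533, minus strand: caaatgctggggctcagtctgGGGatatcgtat

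The complete motif was found in 20 of the 33 coding sequences. The site was identical in Adam1a and Adam1b, and also in Adam20 and Adam39. Adam6b lacked the last histidine codon that Adam6a kept. Adam5 and Adam18 also kept 1 codon of 5.

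Among the 31 members at 0.5 FPKM or more, 21 were highest in labelled PaSC, against 27.4% of all 16652 genes that passed the same filter. Labelled PlpSC held the maximum of 8 members (41.3% of all genes), labelled SG of 1 (16.3%) and labelled L/ZSC of 1 (15.1%). Without the library labelled SG, 21 were highest in labelled PaSC, and labelled PlpSC and L/ZSC held the maximum of 8 and 2. At least 5 FPKM was reached by 10, 9, 8 and 23 of the 33 members in labelled SG, PlpSC, L/ZSC and PaSC. The same level was reached by 38.6%, 39.2%, 34.4% and 36.3% of all genes in the table. The family thus had many more members at 5 FPKM in labelled PaSC than in any other library, while genes in general did not.

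Over all 33 members, 7 were higher and 16 lower at the step to labelled PlpSC over labelled SG, where 30.1% and 30.9% of all 16652 genes were higher and lower. From that stage on to labelled L/ZSC, 20 members were higher and 9 lower, against 30.7% and 45.4% of all genes. At the last step, labelled PaSC over labelled L/ZSC, 17 members were higher and 5 lower, against 24.9% and 24.6%. Adam26b and Adam34 passed the filter through labelled PaSC alone and Adam33 through labelled PlpSC alone, so their differences were in part set by the filter. The median difference over the 31 members, on the log2(FPKM + 0.5) scale, was -0.06, 1.27 and 0.73 at these steps, beside 0.00, -0.29 and -0.10 over all genes. When libraries were given equal FPKM sums, the members counted 1 higher and 21 lower, 22 and 5, and 22 and 3 at the 3 steps. Of all genes, 8.62% and 70.4%, 52.8% and 23.7%, and 34.6% and 11.5% were then higher and lower, with medians of -1.04, 0.57 and 0.20.

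**Figure D1:**
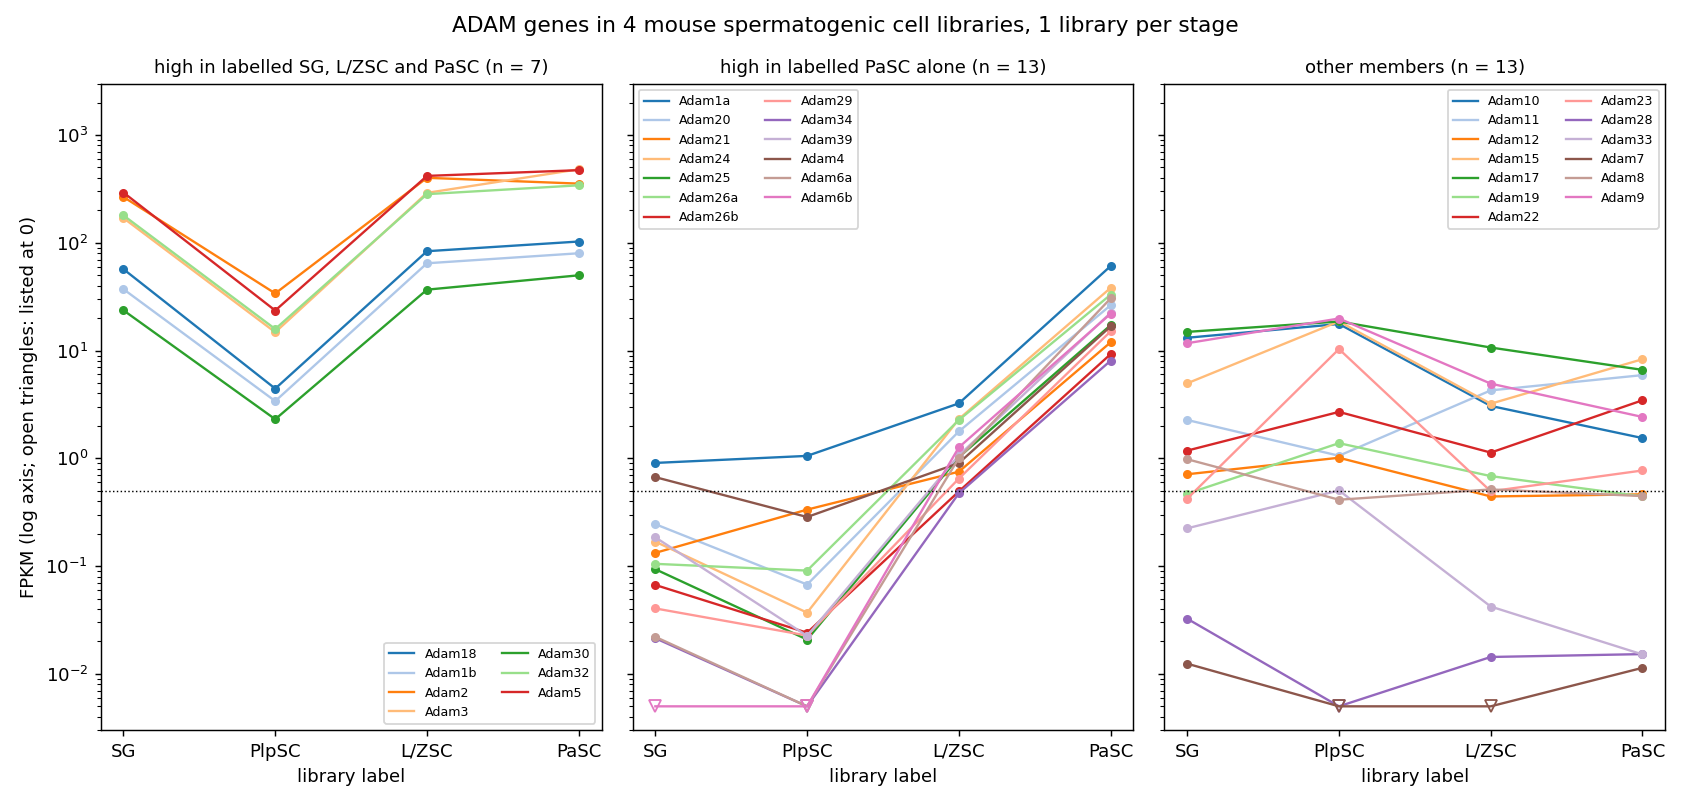
FPKM of the 33 ADAM genes in the 4 libraries, on a log axis, with lines joining the values of 1 gene and open triangles for values listed at 0; the dotted line is 0.5 FPKM. The left panel holds 7 genes with their lowest value in labelled PlpSC, the middle panel 13 genes that are at most 3.24 FPKM until labelled PaSC, where they lie between 8.06 and 60.9 FPKM, and the right panel the other 13.

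Most members fell into 2 patterns, which were delimited after the values had been seen. In the first, a gene was over 20 FPKM in labelled SG, L/ZSC and PaSC and more than 5 times its labelled PlpSC level in each. This held for 7 members and for 3.56% of all genes. In the second, labelled PaSC was more than 5 times labelled L/ZSC. This held for 13 members and for 11.4% of all genes. The smallest ratio of the 13 was 14.5, in Adam26a, and the next members below were Adam22 at 3.06 and Adam15 at 2.59. No member lay between 3.06 and 14.5.

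The first pattern held the fertilin and cyritestin genes other than Adam1a. Adam2, the fertilin beta subunit, was at 266, 33.9, 401 and 354 FPKM in labelled SG, PlpSC, L/ZSC and PaSC. Adam3 was at 170, 14.8, 291 and 481 FPKM. Adam1b, the partner of ADAM2 on sperm, was lower at 37.1, 3.40, 64.6 and 80.0 FPKM. Each of these 3 genes was low in labelled PlpSC alone. Adam2 was 7.85 times and Adam3 11.5 times lower there than in labelled SG, and Adam1b 10.9 times.

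The same pattern was seen in 4 further germ cell members. Adam5, which encodes another sperm surface member, was at 293, 23.5, 418 and 472 FPKM in the same order. Adam32, a testis gene without the zinc motif, was at 180, 15.8, 283 and 342 FPKM. Adam18, another testis gene without the motif, was at 57.0, 4.44, 83.6 and 103 FPKM. Adam30, a testis gene that keeps the motif, was at 23.6, 2.31, 36.8 and 49.9 FPKM. The 7 levels spanned a wide range, but the ratios between libraries were alike.

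The ratio of labelled L/ZSC to labelled PlpSC lay between 11.8 (Adam2) and 19.6 (Adam3) for the 7 genes. That of labelled L/ZSC to labelled SG lay between 1.43 (Adam5) and 1.74 (Adam1b). That of labelled PaSC to labelled L/ZSC lay between 0.883 (Adam2) and 1.65 (Adam3), so only Adam3 exceeded 1.5 at the last step. With equal sums Adam1b, Adam18, Adam30 and Adam32 exceeded it too, at 1.57 to 1.77. Genes of the same pattern in the whole table, 592 including these 7, had median ratios of 12.6, 1.49 and 1.12, against 17.9, 1.56 and 1.23 for the 7 ADAM genes. The first of these ADAM medians lay above the upper quartile of that set, 17.2, and the other 2 within the quartiles of 1.37 to 1.60 and 0.929 to 1.33. Pachytene marker sums had a labelled L/ZSC to PlpSC ratio of 12.0 and a labelled PaSC to L/ZSC ratio of 1.03. The drop in labelled PlpSC kept its direction under every scaling tried, and with equal sums the labelled L/ZSC to PlpSC ratio was 27.2 for Adam2 and 45.2 for Adam3. Adam2, which was highest in labelled L/ZSC as deposited, was then highest in labelled PaSC.

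These 7 genes summed to 1026, 98.2, 1577 and 1882 FPKM in labelled SG, PlpSC, L/ZSC and PaSC. The whole family summed to 1079, 192, 1624 and 2224 FPKM, so the 7 held most of the family sum in each library, and least in labelled PlpSC. In labelled PlpSC the 9 widely expressed proteases together held 40.6% of the family sum, against 4.37%, 1.45% and 0.912% of it in labelled SG, L/ZSC and PaSC.

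The second pattern held 9 of the 10 genes of the testase and related group, which encode testis ADAMs; only Adam30 stood apart. Adam24, or testase 1, a protease found on mature sperm, was at 0.169, 0.0370, 2.31 and 38.2 FPKM in labelled SG, PlpSC, L/ZSC and PaSC. Adam26a, or testase 3, was at 0.105, 0.0909, 2.27 and 33.0 FPKM. Adam20 was at 0.245, 0.0675, 1.78 and 26.3 FPKM. Each was near 0 in the first 2 libraries, low in labelled L/ZSC and high in labelled PaSC.

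The other testase group genes followed at lower levels. Labelled PaSC and L/ZSC had 22.4 and 1.07 FPKM of Adam39, and 17.2 and 1.03 FPKM of Adam25. Adam29, whose zinc site lacks the glutamate codon, had 15.1 and 0.649 FPKM. Adam21 had 11.9 and 0.752 FPKM, Adam26b had 9.27 and 0.493 FPKM, and Adam34 had 8.06 and 0.474 FPKM in the same 2 libraries. In labelled SG and PlpSC the highest value of the 6 was that of Adam21, 0.334 FPKM in labelled PlpSC, where Adam34 was listed at 0.

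Among germ cell members outside the testase group, Adam1a, Adam4, Adam6a and Adam6b shared this pattern. Adam1a was the highest of all 13, with 0.907, 1.05, 3.24 and 60.9 FPKM in the 4 libraries. Adam6a was at 0.0221, 0, 1.01 and 30.5 FPKM, and Adam6b was listed at 0 in labelled SG and PlpSC and stood at 1.27 FPKM in the third library and 22.0 FPKM in labelled PaSC. ADAM6 proteins occur with ADAM2 and ADAM3 on mouse sperm. Adam4, another sperm surface member, was at 0.669, 0.286, 0.904 and 16.8 FPKM. Adam4 lies within the span of Cox16 on the same strand, which was at 59.1, 38.2, 88.2 and 66.9 FPKM, so its low values may include reads of that gene.

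For the 13 genes the ratio of labelled PaSC to labelled L/ZSC had a median of 17.4 and a range of 14.5 (Adam26a) to 30.3 (Adam6a). In labelled SG their median was 0.105 FPKM and their maximum 0.907 FPKM. In labelled L/ZSC they lay between 0.474 and 3.24 FPKM. Their sum was 2.66, 1.96, 17.2 and 312 FPKM in the 4 libraries. Labelled SG and L/ZSC, where these genes were low, held 1026 and 1577 FPKM of the 7 genes of the first pattern.

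Markers of other cells moved at the same step. All 5 spermatid markers (Prm1, Prm2, Tnp1, Tnp2 and Acrv1) were highest in labelled PaSC, with sums of 5.52, 4.31, 75.1 and 11292 FPKM in labelled SG, PlpSC, L/ZSC and PaSC. Their labelled PaSC to L/ZSC ratio of sums was 150. None of the 5 was listed at 0 in any library. Of 5 Leydig cell markers, 4 were highest in labelled PaSC, and their sums were 33.3, 709, 49.1 and 2129 FPKM. The part of spermatids or Leydig cells in the 13 ADAM values was not tested, and these values need not be those of pachytene cells.

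Some of the 13 genes are near copies of each other. The coding sequences of Adam25 and Adam39 were 96.1% identical, those of Adam6a and Adam6b 94.9% and those of Adam26a and Adam26b 94.4%. Adam20 shared 89.7% with Adam25, and Adam34 shared 89.6% with Adam26a. Reads could have been divided among such copies, so the level of each single gene is less certain than the sum of a pair. Adam25 and Adam39 together had 39.6 FPKM in labelled PaSC, against 2.09 FPKM in labelled L/ZSC, and the pattern of the sum was that of its members. Adam1a and Adam1b shared 78.9%.

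Gene structure separated the patterns only in part. All 13 genes of the second pattern have their coding part in a single exon. Of the 7 genes of the first pattern, Adam1b and Adam30 do, and the other 5 have from 19 to 22 coding exons. None of the remaining 13 members has a single coding exon. In the whole table, 7.71% of 14854 genes at 0.5 FPKM or more with a coding gene model had a single coding exon, and 15.4% of the 1416 such genes that were more than 5 times higher in labelled PaSC than in labelled L/ZSC did. Outside the family, 18.1% of 1130 single coding exon genes showed that increase, against 13 of 15 such ADAM genes. Near copies such as Adam25 and Adam39 are not independent cases.

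The zinc motif divided the members differently. Of the first pattern only Adam1b and Adam30 hold it, so the 5 highest germ cell members, Adam2, Adam3, Adam5, Adam18 and Adam32, all lack it. Of the second pattern 9 of 13 hold it, and Adam4, Adam6a, Adam6b and Adam29 do not. In each library, the summed FPKM of germ cell members was thus mainly that of members without the protease site.

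**Figure D2:**
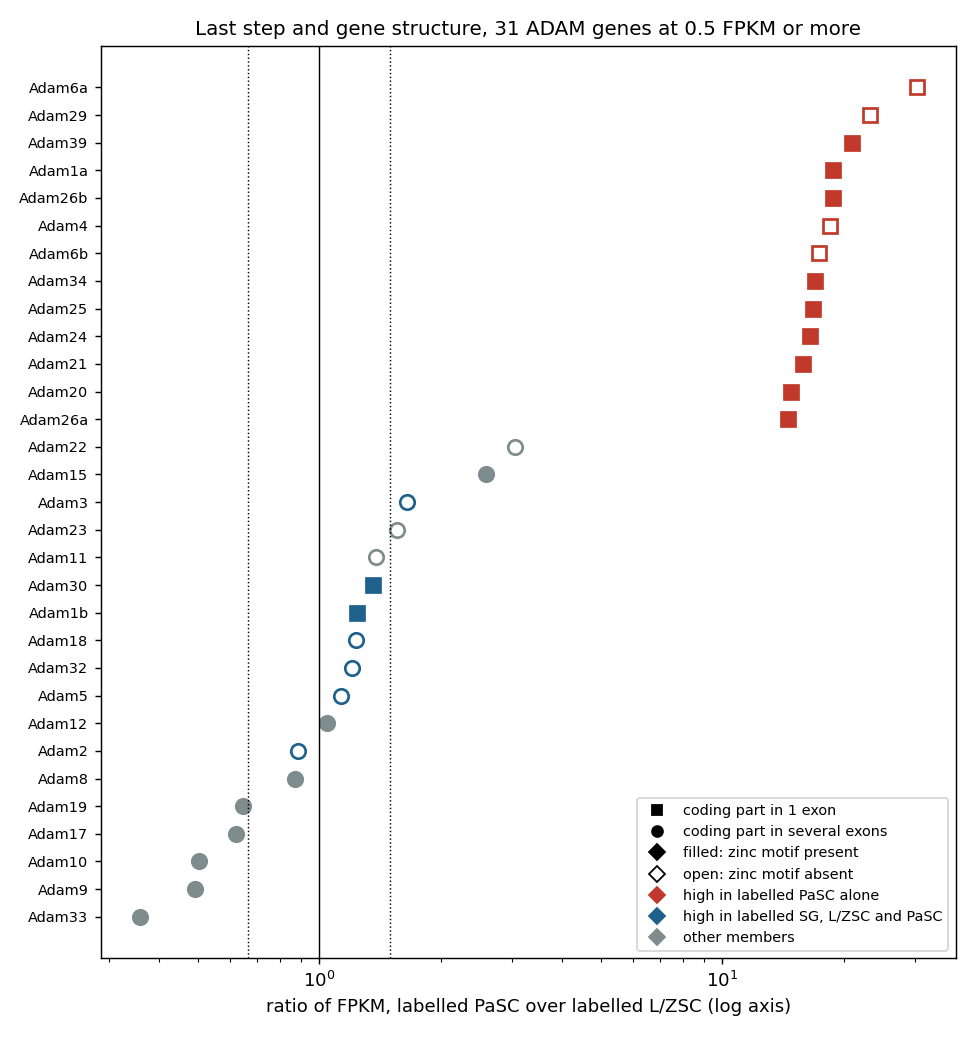
Ratio of FPKM in labelled PaSC over labelled L/ZSC on a log axis for the 31 ADAM genes at 0.5 FPKM or more, with dotted lines at ratios of 1.5 in either direction; squares mark genes with a single coding exon and filled symbols genes with the zinc motif. The 13 squares of the second pattern lie from 14.5 to 30.3, and no other gene is above 3.06.

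The position of genes on the chromosomes followed the patterns in part (GRCm38 coordinates from RefSeq). Adam18, Adam3, Adam5, Adam32 and Adam9 lie one after the other on the minus strand of chromosome 8 between positions 24602246 and 25017040. The first 4 of them belong to the first pattern. Adam9 ends this row only 0.692 kb from Adam32, and it had 11.7, 19.8, 4.94 and 2.42 FPKM in labelled SG, PlpSC, L/ZSC and PaSC, highest where Adam32 was lowest. Further along chromosome 8, Adam24, Adam25, Adam20 and Adam39 lie between 40675077 and 40826861, and Adam26b, Adam26a and Adam34 between 43519864 and 43665560. All 7 belong to the second pattern. Adam29, of the same pattern, lies alone at 55870912 to 55906964.

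Other members of the second pattern lie on chromosome 12. Adam4 and Adam21 are 137 kb apart there, and Adam6b and Adam6a 52.1 kb apart. Adam2 is on chromosome 14 and Adam30 on chromosome 3.

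**Figure D3:**
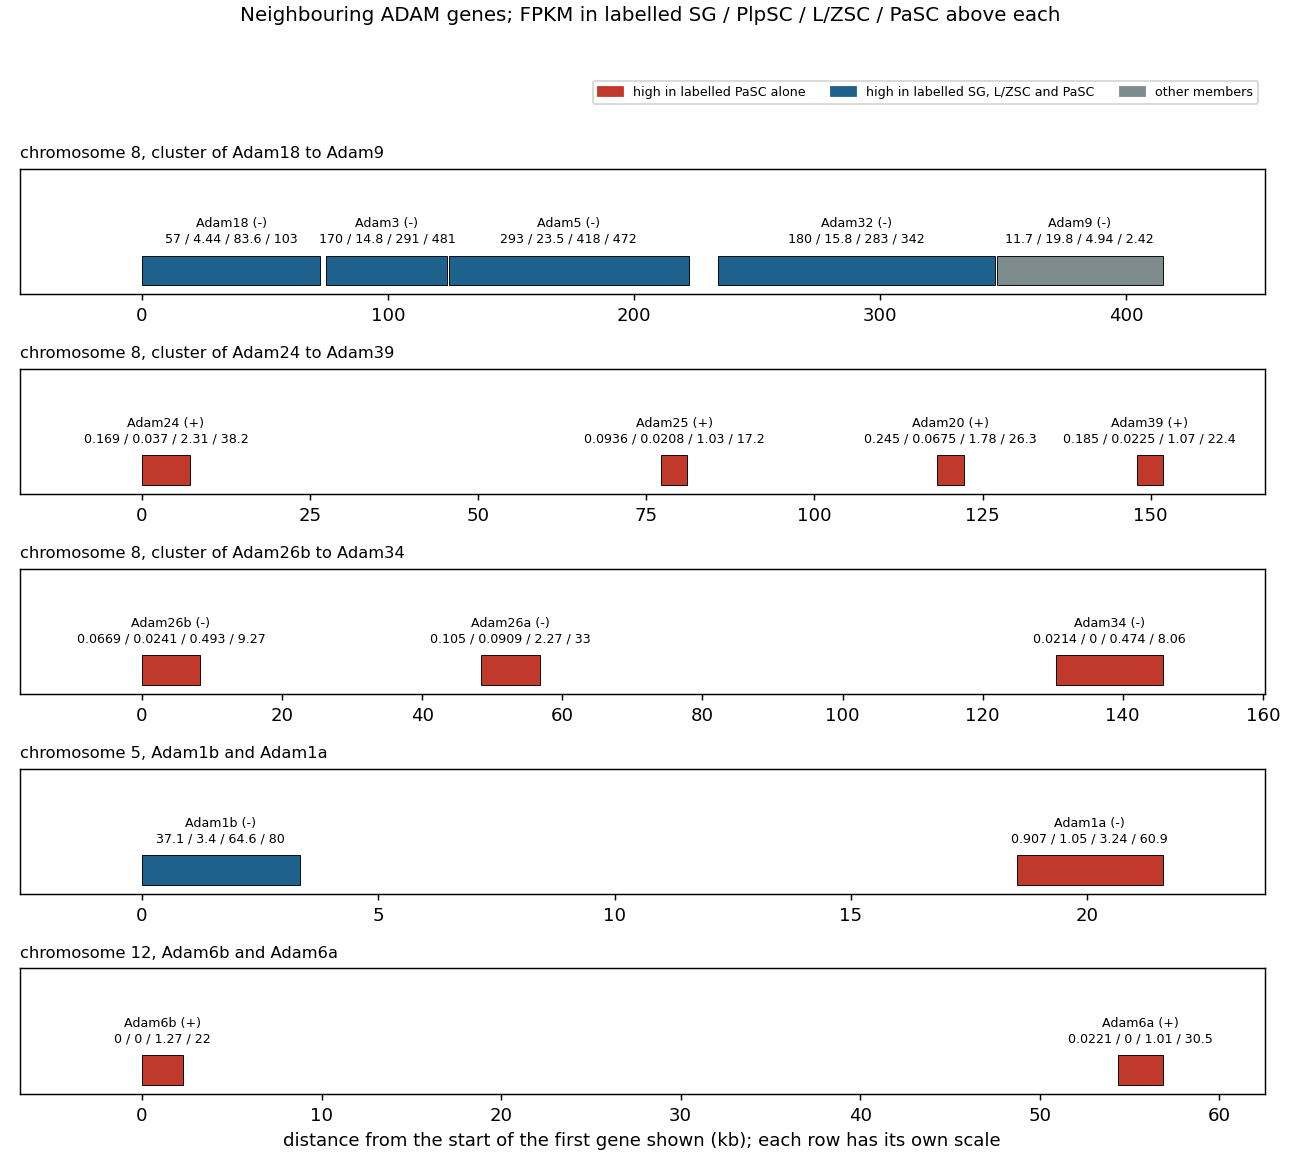
Extent of neighbouring ADAM genes at 5 places on chromosomes 8, 5 and 12, as distance in kb from the start of the first gene shown, with strand and FPKM in labelled SG, PlpSC, L/ZSC and PaSC above each gene. Neighbours share a colour, and so a pattern, except Adam9 beside Adam32 and Adam1a beside Adam1b.

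Adam1a and Adam1b are neighbours with unlike patterns. They lie 15.2 kb apart on the minus strand of chromosome 5, at 121518604 to 121521695 and 121500096 to 121503435, each with a single coding exon and with the same zinc site. In labelled SG Adam1a was at 0.907 FPKM and Adam1b at 37.1. They were at 3.24 and 64.6 FPKM in labelled L/ZSC, then at 60.9 and 80.0 FPKM in labelled PaSC. The 2 genes were nearly level only in labelled PaSC. Both lie within the span of Tmem116 on the other strand, which was at 12.2, 8.25, 14.8 and 12.3 FPKM in the 4 libraries. Whether reads of Tmem116 reached these values cannot be told, since use of strand in counting is not given in the sources used here.

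Since the patterns of this pair differ, the 150 bases before each annotated start are shown (RefSeq, GRCm38.p6), with matches to a MYB core, AACNGNC on either strand, in capitals. MYBL1, of the MYB family, is a transcription regulator of pachytene genes.
Adam1a, chr5:121521696-121521845, minus strand: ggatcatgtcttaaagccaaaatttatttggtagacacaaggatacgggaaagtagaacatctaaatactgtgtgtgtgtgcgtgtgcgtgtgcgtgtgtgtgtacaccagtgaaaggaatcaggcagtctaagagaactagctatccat
Adam1b, chr5:121503436-121503585, minus strand: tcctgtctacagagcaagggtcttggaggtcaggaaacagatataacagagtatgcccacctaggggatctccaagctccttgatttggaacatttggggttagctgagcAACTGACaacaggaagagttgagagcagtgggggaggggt

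Adam1b held 1 match, starting 40 bases before the annotated start, and Adam1a none in its window of 250 bases before to 50 bases after the start. Promoters were found for 17 of the 33 members, 19 in all. The core was present in 5 of 9 promoters of the second pattern, in 1 of 1 of the first, in 2 of 9 of the others and in 32.8% of 32851 promoters. The 5 include the near copies Adam6a and Adam6b, and also Adam20 and Adam25, which are not independent cases. Among the others, Adam19 has more than 1 promoter. The palindrome TGACGTCA of cAMP response elements was in 0 of the 19 and in 1.79% of all. Its half-site TGACG, which the palindrome contains, was in 0 of 9 of the second pattern, in 1 of 9 of the others and in 20.8% of all. A match to such short letters is a description and not a binding site.

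The widely expressed ADAM proteases ran the other way. Adam10, the sheddase of Notch receptors, was at 13.2, 17.7, 3.07 and 1.54 FPKM in labelled SG, PlpSC, L/ZSC and PaSC. Adam17, which releases tumor necrosis factor, was at 14.9, 18.6, 10.7 and 6.62 FPKM. Adam9 followed Adam10, and Adam15, known from blood vessel growth, was at 4.97, 18.6, 3.21 and 8.32 FPKM. All 4 were highest in labelled PlpSC and lower in labelled L/ZSC.

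Of the 8 widely expressed members at 0.5 FPKM or more, labelled PlpSC exceeded labelled SG for 4 and was the lower one for 1. At the next step, to labelled L/ZSC, 0 were higher and 7 lower. At the last, Adam15 was 2.59 times higher in labelled PaSC than in labelled L/ZSC, and 5 others were lower. Of all genes, 30.1% were higher at the first of these steps, 45.4% lower at the second and 24.6% lower at the last. Adam10 in labelled PaSC was 11.4 times lower than in labelled PlpSC, and Adam9 8.20 times lower, but with equal sums these ratios were 3.82 and 2.74. That scaling moved the maximum to labelled SG for Adam9, Adam10, Adam12, Adam17 and Adam33, to labelled L/ZSC for Adam19 and to labelled PaSC for Adam15. The ratio of labelled L/ZSC to labelled PlpSC was then 0.400 for Adam10, 0.572 for Adam9 and 1.32 for Adam17. Adam12 and Adam19 were at 1.01 and 1.14. Scaling by median ratios instead kept Adam12, Adam17 and Adam19 lower in labelled L/ZSC, at 0.463, 0.607 and 0.524. Labelled PlpSC again held the maximum of 8 members under that scaling. The direction of Adam12, Adam17 and Adam19 at this step thus depended on the scaling, and that of Adam9, Adam10 and Adam15 did not.

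The rest of this group was low. Adam12 and Adam19, the meltrins of muscle and heart development, reached 1.01 and 1.38 FPKM in labelled PlpSC. Adam8, a leukocyte member, had its maximum of 0.982 FPKM in labelled SG, the only one of the 31 members past the filter to do so. Adam33, known from smooth muscle and fibroblasts, reached 0.504 FPKM in labelled PlpSC, just over the filter. Adam28 and the epididymal Adam7 did not exceed 0.0325 and 0.0124 FPKM.

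The neuronal members, which lack the protease site and bind LGI proteins in the brain, differed from each other. Adam23 was at 0.422, 10.3, 0.495 and 0.772 FPKM, and labelled PlpSC was 13.4 times the next library. With equal sums it was the only member that stayed highest in labelled PlpSC, then 4.47 times the next library. Adam11 was at 2.27, 1.06, 4.27 and 5.92 FPKM, highest in labelled PaSC and lowest in labelled PlpSC. Adam22 was at 1.18, 2.70, 1.13 and 3.46 FPKM, with no single high library.

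Markers of other testis cells were also highest in labelled PlpSC. The sums of 5 fibroblast markers were 37.3, 714, 18.7 and 6.02 FPKM in labelled SG, PlpSC, L/ZSC and PaSC, and those of 5 macrophage markers 12.3, 196, 8.42 and 5.88 FPKM. Peritubular myoid markers summed to 23.0, 122, 19.3 and 10.8 FPKM. All 15 of these genes had their maximum in labelled PlpSC, and none was listed at 0 anywhere. Sertoli cell markers summed to 1280, 637, 339 and 100.2 FPKM, with all 5 highest in labelled SG. Endothelial markers did not exceed a sum of 19.6 FPKM. The part of these cells in the ADAM values of labelled PlpSC was not tested.

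**Figure D4:**
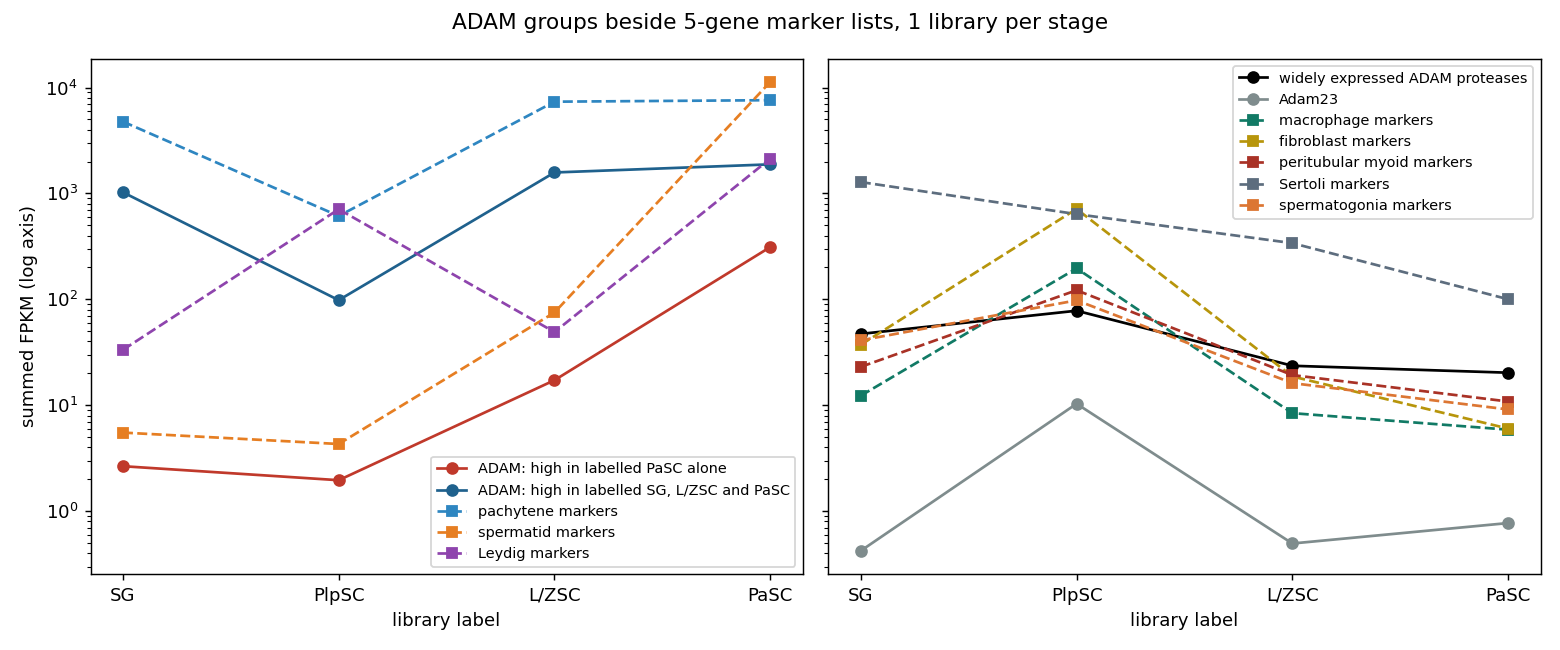
Summed FPKM, on a log axis, of ADAM groups (circles, solid lines) and of 5-gene marker lists (squares, dashed lines) in the 4 libraries; the grey line is Adam23 alone. The 7 genes of the first ADAM pattern dip in labelled PlpSC with the pachytene markers. The 13 of the second reach 312 FPKM in labelled PaSC, where the spermatid and the Leydig marker sums are also highest. As deposited, the widely expressed proteases peak at 78.1 FPKM in labelled PlpSC, but with equal library sums none of them was highest there.

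The secreted ADAMTS proteases, which cut proteoglycans and procollagen, were mostly highest in labelled PlpSC. This held for 15 of 19 ADAMTS genes as deposited, against 41.3% of all genes past the filter. Only 13 of the 19 reached 0.5 FPKM, so the 15 include genes below the filter and the shares are not alike. Between labelled L/ZSC and labelled PlpSC, 11 of the 13 were lower and 2 higher in labelled L/ZSC, against 45.4% and 30.7% of all genes. Adamts5, an aggrecanase, was at 0.647, 12.7, 0.397 and 0.185 FPKM, and Adamts1 at 3.93, 12.7, 0.965 and 1.35 FPKM in the 4 libraries. Adamts10 and Adamts2 followed, with maxima of 9.48 and 7.85 FPKM in labelled PlpSC. The highest ADAMTS value in labelled PaSC was that of Adamts17, picked for this reason, at 2.45 FPKM, whereas 23 ADAM genes were at 5 FPKM or more there.

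Sperm ADAMs are folded by chaperones of the endoplasmic reticulum and trimmed by proprotein convertases. A list of 13 chaperones and processing enzymes was taken, all at 0.5 FPKM or more. It includes Tpst2, which is neither a chaperone nor a convertase. As deposited, 8 of the 13 had their maximum in labelled PlpSC (41.3% of all genes). Labelled L/ZSC and PaSC held that of 2 and 3 (15.1% and 27.4%). The 4 highest, Hspa5, Calr, Pdia6 and P4hb, serve cells in general. As deposited, they peaked in labelled PlpSC at 1342, 848, 349 and 295 FPKM. Calr and Pdia6 were only 1.95 and 1.97 times higher there than in labelled SG. Equal sums were not applied to this list, but they took Adam22 from a ratio of 2.29 at this step to 0.905. Calr and Pdia6 would thus be higher in labelled SG, and the count of 8 would be smaller. The following 3 testis forms were picked after their values had been seen. Clgn, the calmegin chaperone that ADAM3 needs, was at 156, 26.8, 177 and 149 FPKM in labelled SG, PlpSC, L/ZSC and PaSC. It met the terms of the first ADAM pattern. Pdilt was at 0.347, 0.0648, 3.99 and 85.0 FPKM and Calr3 at 1.22, 5.05, 1.48 and 37.9 FPKM. Both chaperones, which ADAM3 also needs, were over 20 times higher in labelled PaSC than in labelled L/ZSC, as were 3 of the 13 ADAM genes of the second pattern (Adam6a, Adam29 and Adam39).

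A further list held 10 genes chosen for a part in ADAM3 being processed or kept on sperm. Such a part is not established for Lypd4. Of the 10, 7 were higher and 1 lower at the step to labelled L/ZSC, where 30.7% and 45.4% of all genes were. Lypd4 was among these 7. At the step to labelled PaSC, 5 were higher and 1 lower, against 24.9% and 24.6%. Cmtm2a and Cmtm2b, membrane proteins of the CMTM family, were at 615, 49.0, 984 and 1345 FPKM and at 386, 31.2, 676 and 855 FPKM. Lypd4 was at 268, 27.0, 412 and 613 FPKM. These 3 genes met the terms of the first ADAM pattern. Tex101, a germ cell surface protein, was highest in labelled PlpSC as deposited, at 1082 FPKM, with 196 FPKM in labelled PaSC. Its labelled PlpSC value was 1.99 times that in labelled SG, and equal sums were not applied to this list either. Prss37 and Prss55, of the trypsin-like protease family and picked after their values had been seen, were at 68.4 and 60.4 FPKM in labelled PaSC, against 0.792 and 1.47 FPKM in labelled L/ZSC.

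Regulators of the widely expressed sheddases did not share 1 course. Of 14 genes, 13 passed 0.5 FPKM, and 9 of these were lower and 1 higher at the step to labelled L/ZSC, against 45.4% and 30.7% of all genes. Timp2, an inhibitor of metalloproteases, was at 40.3, 64.3, 12.3 and 13.7 FPKM in the 4 libraries. Frmd8, which stabilizes the iRhom partners of ADAM17, ran the other way at 46.8, 14.5, 63.5 and 61.7 FPKM. Tspan17 and Tspan5, tetraspanins that accompany ADAM10, were highest in labelled SG at 29.4 and 26.8 FPKM, and Tspan17 was at 1.54 FPKM in labelled PaSC.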

How the data were processed

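The deposited table holds FPKM per gene and library, which the authors calculated with Cuffdiff for RefSeq genes. Reads had been placed on mm10 by TopHat with default parameters. The versions, whether strand was used in counting, and how libraries were scaled: not given in the sources used here. Depth is unknown, and no sample column was left unused. The 4 columns were matched to samples by name. The 16652 genes that reached 0.5 FPKM anywhere were kept, and a ratio over 1.5 was called higher or lower. A gene listed at 0 was called when the other library reached 0.5 FPKM, without a fold. With 1 library per stage no test was run.

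All 33 members could be named, as could the 4 highest genes of each other list and the marker genes. Members and lists were chosen with earlier results of these data known. Member genes were matched by symbol to RefSeq (GRCm38.p6) and GENCODE M21, 33 of 33 in both. For each, the longest complete coding sequence within the RefSeq gene was used, and proteins translated from it were aligned with BLOSUM62. Identity is in percent of the shorter coding sequence. The alternatives tried were another pseudocount (0.1 or 1 in place of 0.5), another filter (none, 1 or 5 FPKM), a ratio of 2, equal FPKM sums, scaling by median ratios (genes over 1 FPKM throughout), and leaving out labelled SG. The rule for calling ratios, which is no statistical test, was checked on simulated data with known changes. Python 3.11.15, pandas 2.3.3, numpy 2.4.6, Biopython 1.88 and matplotlib 3.10.9 were used.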

Additional observations from a re-analysis of the deposited data

How the results depend on the processing

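A count was taken as moved if it changed by more than 1.5 times, and a median if its fold did. A pseudocount of 0.1 moved the median difference of labelled L/ZSC over PlpSC to 2.52. A filter at 5 FPKM moved the median of labelled PaSC over L/ZSC to 2.19. It also left 4 members higher in labelled PlpSC than in labelled SG, 5 lower in labelled L/ZSC than in labelled PlpSC, and 3 lower in labelled PaSC than in labelled L/ZSC, since fewer genes remain. Equal sums gave 1, 5 and 3 for the same counts, median ratios gave 3 for the last, and a ratio of 2 gave 2 for the last. All other results kept within these limits under the alternatives run for them, and no median changed sign. The number highest in labelled PaSC was 20 to 23 under every alternative run for it. No paired analysis was possible because each stage has 1 library. Without replicates or read counts, small differences at low FPKM cannot be read as differences between stages.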
